A study of Mus musculus with 12 samples.

Results

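The expression of 9 complement genes was examined in cultured mouse astrocytes, in the spheres derived from them and in 2 cell suspensions taken from the brain. The genes were C1qa, C1qb and C1qc, C4b, C3, C3ar1, C5ar1, Serping1 and Cfb, which were found by gene symbol among the 55862 genes of the deposited expression table. They were chosen because their levels in the 4 groups, and above all their differences between spheres and astrocytes, were already known from these same libraries. Their levels and fold changes are therefore given as descriptions, without p-values. The labels give C57BL/6 as the strain of all groups, while the study's methods give C57BL/6J for the mice of both NPC groups, and there were 3 libraries in each group, 12 in total. ASTs were primary astrocytes from the cerebral cortex of newborn mice with the meninges removed, grown as a monolayer in medium with serum and collected at day 0. A-iSCs were the same kind of ASTs after 5 days as floating spheres on agarose, so that time in culture and the sphere format changed together. P56-NPCs were cells dissociated from the subependymal zone of adult mice, and P0-NPCs were cells dissociated from the hippocampus of mice on the day of birth. No sorting of the NPC suspensions is described, and the markers given below show RNA of other cell types in them. Nothing in the labels states that the libraries of a group came from separate animals or cultures, and the p-values given for other genes then measure only the spread between these libraries.

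Complement is a cascade of serum and tissue proteins that tags cells and debris for removal. In the classical pathway, the C1q molecule, built from the C1qa, C1qb and C1qc chains, binds its target and leads to the cleavage of C4 and then of C3. C3 fragments coat the target, whereas the small peptides C3a and C5a act on the receptors C3ar1 and C5ar1 of myeloid cells. Serping1 encodes the C1 inhibitor, which blocks the proteases of the C1 complex, and Cfb encodes factor B, the protease component of the alternative pathway. In the brain, microglia are known as the main source of C1q and carry the receptors for C3a and C5a, whereas C4 and C3 are also made by reactive astrocytes, and tagging of synapses by C1q and C3 is a known step of synapse removal.

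Libraries held 17077780 to 24452419 fragments on genes, and values are FPKM, fragments scaled to gene length and library size in the deposited table. A count of 3 fragments, the floor used here, stood for 0.103 to 0.187 FPKM in a gene of 1 kilobase. Mitochondrial genes took 16.5 to 17.6% of the fragments in P56-NPCs and 2.94 to 7.03% elsewhere. Markers of several cell types were present in every group. The summed FPKM of 15 microglial markers was 235 to 269 in ASTs, 2336 to 2771 in A-iSCs, 842 to 882 in P56-NPCs and 118 to 156 in P0-NPCs. The 9 astrocyte markers summed to 159 to 180 in ASTs, 1249 to 2524 in A-iSCs, 2869 to 3113 in P56-NPCs and 256 to 319 in P0-NPCs. P56-NPCs also held 10825 to 12337 FPKM of 6 oligodendrocyte markers, and choroid plexus markers reached 1481 to 3158 FPKM in P56-NPCs and 736 to 3795 FPKM in P0-NPCs. The 6 neuronal markers summed to 748 to 901 FPKM in P0-NPCs, 181 to 222 in P56-NPCs and 41.8 to 57.6 in the culture groups. RNA of microglial genes was thus present in all 4 groups.

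Of the 9 genes, 3 lie side by side on chromosome 4 in GRCm38, all on the minus strand, with C1qb at 136880129 to 136886187, C1qc at 136889804 to 136893065 and C1qa at 136895917 to 136898803. C4b (34728380 to 34743882), Cfb (34856374 to 34862518) and C3 (57203970 to 57228136) are on chromosome 17, the first pair within the region of the major histocompatibility complex. C3ar1 is on chromosome 6, C5ar1 on chromosome 7 and Serping1 on chromosome 2. RefSeq promoter windows of 250 bases before the gene start were matched for 5 of the 9 genes, and those for C1qa, C4b, Serping1 and Cfb were not matched. They are shown because Spi1, Irf8 and Cebpb, which encode transcription factors of myeloid and inflammatory genes, are among the genes tested further on. Of each window the longest stretch outside the exons that GENCODE M21 gives for the gene is printed, 5′ to 3′ on the gene's strand, build GRCm38.p6. In C5ar1, whose GENCODE model starts upstream of the RefSeq start, this stretch lies in an intron of that model. Capitals mark the ETS core AGGAAG on either strand, the letters at the centre of the sites of PU.1 (Spi1) and other ETS factors, or in C3 the C/EBP pattern TTGCNNAA.
C1qb, chr4:136886201-136886450, minus strand: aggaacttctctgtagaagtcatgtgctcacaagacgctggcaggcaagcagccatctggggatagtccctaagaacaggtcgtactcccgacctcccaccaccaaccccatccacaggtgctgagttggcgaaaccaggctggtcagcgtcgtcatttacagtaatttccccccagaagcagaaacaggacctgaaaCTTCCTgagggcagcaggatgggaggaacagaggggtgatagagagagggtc
C1qc, chr4:136893066-136893164, minus strand: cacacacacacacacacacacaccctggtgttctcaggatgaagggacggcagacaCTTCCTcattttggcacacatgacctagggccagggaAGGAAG
C3ar1, chr6:122856162-122856407, minus strand: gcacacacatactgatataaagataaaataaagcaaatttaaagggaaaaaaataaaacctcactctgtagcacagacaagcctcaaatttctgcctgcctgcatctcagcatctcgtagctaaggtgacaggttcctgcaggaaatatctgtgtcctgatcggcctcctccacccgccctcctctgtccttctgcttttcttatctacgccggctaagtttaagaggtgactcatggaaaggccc
C5ar1, chr7:16259339-16259512, minus strand: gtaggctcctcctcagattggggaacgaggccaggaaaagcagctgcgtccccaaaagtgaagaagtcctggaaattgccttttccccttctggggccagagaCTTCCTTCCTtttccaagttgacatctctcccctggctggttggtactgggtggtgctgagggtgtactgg
C3, chr17:57228137-57228386, minus strand: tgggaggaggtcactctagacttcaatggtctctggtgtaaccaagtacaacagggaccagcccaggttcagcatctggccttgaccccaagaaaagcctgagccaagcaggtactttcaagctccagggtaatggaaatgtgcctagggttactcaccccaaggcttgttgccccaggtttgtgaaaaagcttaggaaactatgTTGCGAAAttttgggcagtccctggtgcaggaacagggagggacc

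The ETS core was found at -52 from the start in C1qb, at -194 and -157 in C1qc, and at -71 and -67 in C5ar1, where a further match at -189 lay in an exon. The match of C1qc at -194 was also the only one of the longer PU.1 core GAGGAAG, which contains the ETS core, among the 5 windows. The C/EBP pattern was found in C3 at -45. C3ar1 had no match to any of these in its window, and none of the 5 windows held the interferon-stimulated response element. Such letters are common. Of 32536 distinct windows of the same length, 29.6% held the ETS core, 10.7% the PU.1 core, 9.57% the C/EBP pattern and 2.98% the interferon-stimulated response element. The matches are descriptions of sequence and were not tested for binding, and the patterns were chosen after the values were known.

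The 3 chains of C1q were the most abundant of the 9 transcripts in every group and were far higher in A-iSCs than elsewhere. C1qa was at 76.3, 103 and 81.8 FPKM in the AST libraries, 1248, 948 and 891 in A-iSCs, 218, 196 and 226 in P56-NPCs, and 40.6, 42.3 and 41.6 in P0-NPCs. The libraries did not overlap between any of the groups, and the order was A-iSC, P56-NPC, AST and P0-NPC. In A-iSCs, C1qa, C1qb and C1qc ranked 23, 27 and 48 among the protein-coding genes by mean FPKM, whereas in ASTs they ranked 568, 738 and 1407.

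C1qb had 64.6, 77.5 and 67.3 FPKM in ASTs, 1147, 1025 and 723 in A-iSCs, 187, 178 and 205 in P56-NPCs, and 41.6, 48.0 and 55.1 in P0-NPCs. C1qc had 32.9, 44.3 and 38.0 FPKM in ASTs, 587, 484 and 405 in A-iSCs, 93.3, 90.5 and 98.6 in P56-NPCs, and 22.1, 29.5 and 24.9 in P0-NPCs. Both showed the same order of groups as C1qa, again without overlap. The step from ASTs down to P0-NPCs was the smallest, at 1.45-fold for C1qb and 1.51-fold for C1qc in the means. The chains together took 0.345 ± 0.0621% of all fragments in A-iSCs (SD, n = 3), 0.0467 ± 0.00377% in P56-NPCs, 0.0233 ± 0.00260% in ASTs and 0.0172 ± 0.00120% in P0-NPCs. Their proportions varied much less than their levels. The ratio of C1qa to C1qc per length was 2.27 ± 0.0995 in ASTs, 2.10 ± 0.124 in A-iSCs, 2.27 ± 0.0871 in P56-NPCs and 1.65 ± 0.203 in P0-NPCs. P0-NPCs thus lay below the other groups in this ratio without overlap, since the highest P0-NPC library was at 1.84 and the lowest of all others at 1.96. The length used for C1qc, 1931 bases, covers the exons of 2 transcripts, whereas its longest transcript has 1203. With a shorter length the FPKM of C1qc would be higher, and this ratio lower, in every group.

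**Figure D1:**
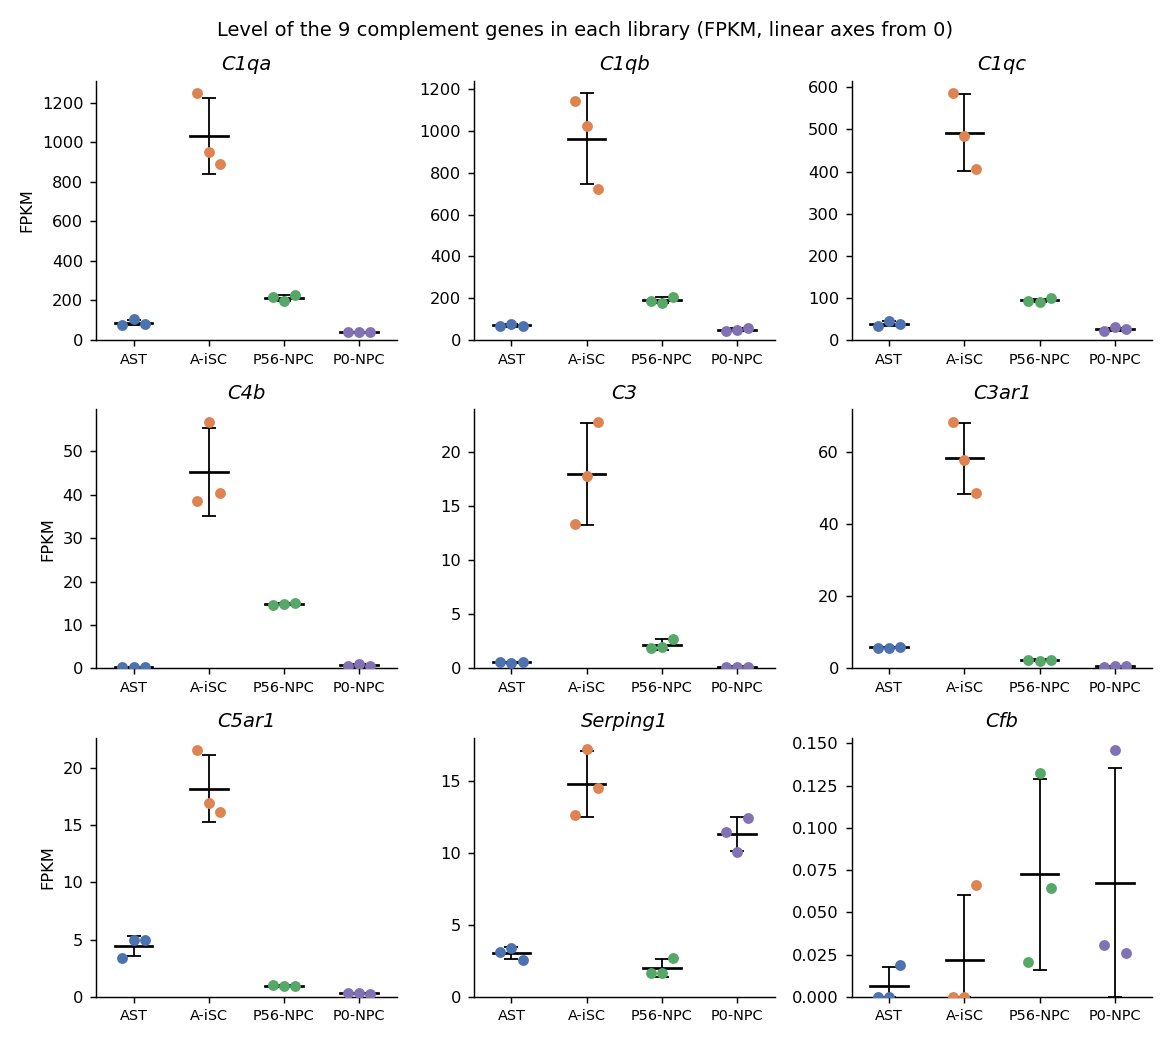
Level of each of the 9 complement genes in the 12 libraries, in FPKM on a linear axis that starts at 0 and differs between panels. Points are libraries, the horizontal line is the mean and the bar is ± SD (n = 3), cut at 0. The 3 A-iSC libraries are the highest of all in 8 panels, while Cfb stays below 0.15 FPKM everywhere.

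C4b, the complement component whose cleavage follows C1 activation, was low in ASTs and far higher in A-iSCs and P56-NPCs. It was at 0.398, 0.303 and 0.321 FPKM in ASTs, from 34 to 38 fragments a library, and at 38.5, 56.8 and 40.4 FPKM in A-iSCs. P56-NPCs held 14.5, 14.7 and 15.1 FPKM, and P0-NPCs 0.553, 1.07 and 0.497 FPKM. No groups overlapped, and P56-NPCs exceeded P0-NPCs by 20.9-fold in the means. C4b shares 11.5% of the windows of a read's length in its longest transcript with the related gene C4a, so a part of its reads could be assigned to either. C4a itself was listed at 0.0521 to 0.0715 FPKM in ASTs, 0.138 to 0.648 in A-iSCs, 0.141 to 0.232 in P56-NPCs and 0.439 to 0.686 in P0-NPCs. The ratio of C4b to C4a was 59.4 to 292 in A-iSCs, 62.6 to 105 in P56-NPCs, 4.24 to 6.90 in ASTs and 1.13 to 1.56 in P0-NPCs.

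C3, the central component on which all pathways converge, was at 0.626, 0.527 and 0.586 FPKM in ASTs and at 13.3, 17.7 and 22.8 FPKM in A-iSCs. It was at 1.90, 1.95 and 2.74 FPKM in P56-NPCs and at 0.170, 0.160 and 0.113 FPKM in P0-NPCs, the latter from 16 to 24 fragments a library. The groups followed the same order as the C1q chains and did not overlap. A-iSCs exceeded P56-NPCs by 8.16-fold in the mean of C3 and by 3.06-fold in that of C4b.

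The anaphylatoxin receptors followed another order, in which P56-NPCs lay below ASTs. C3ar1, the receptor of C3a, was at 5.56, 5.73 and 6.05 FPKM in ASTs, 68.3, 57.7 and 48.5 in A-iSCs, 2.33, 2.10 and 2.44 in P56-NPCs, and 0.498, 0.614 and 0.599 in P0-NPCs. C5ar1, the receptor of C5a, was at 3.39, 4.93 and 4.99 FPKM in ASTs, 21.5, 16.9 and 16.1 in A-iSCs, 1.01, 0.921 and 0.969 in P56-NPCs, and 0.357, 0.307 and 0.226 in P0-NPCs. For both receptors the order was A-iSC, AST, P56-NPC and P0-NPC with no overlap. A-iSCs exceeded ASTs by 10.1-fold in the mean of C3ar1 and by 4.10-fold in that of C5ar1, and ASTs exceeded P56-NPCs by 2.52-fold and 4.59-fold.

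Serping1, the C1 inhibitor, had its second highest level in P0-NPCs, the group in which the C1q chains, C3 and both receptors were lowest. It was at 3.13, 3.39 and 2.59 FPKM in ASTs, 12.7, 17.2 and 14.5 in A-iSCs, 1.66, 1.66 and 2.72 in P56-NPCs, and 11.5, 10.1 and 12.5 in P0-NPCs. The A-iSC libraries lay just above the P0-NPC libraries, and the AST and P56-NPC libraries overlapped. Cfb, or factor B, was listed at 0 in 4 of the 12 libraries and reached at most 0.146 FPKM, and it had 0 to 12 fragments a library. The AST libraries, with 0, 0 and 1 fragments, lay below the P0-NPC libraries, with 2, 12 and 2, but the A-iSC libraries, with 0, 0 and 5, overlapped all other groups. No fold change is given for it, since ASTs held 1 fragment and A-iSCs 5 over 3 libraries each. In addition, 79.5% of the exonic bases of Cfb lie in the readthrough gene Gm20547 on the same strand, which was listed at 0 in all 12 libraries, so a fragment from either could have been left uncounted.

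To compare spheres with the astrocytes they came from, differences in log2(FPKM + 1), A-iSC minus AST, were taken from limma fitted over 14087 genes. This scale understates the change of genes with low values. C4b differed by 5.09 ± 0.16 (SE), C1qb by 3.75 ± 0.20, C1qc by 3.64 ± 0.19, C3 by 3.55 ± 0.18, C1qa by 3.54 ± 0.20 and C3ar1 by 3.11 ± 0.14. Serping1 and C5ar1 showed the smallest differences, 1.96 ± 0.14 and 1.82 ± 0.17. The median of the 8 fitted members was 3.55, whereas the median over all genes was -0.06. The members passed the filter on low values, a mean of 1 FPKM in either group, in 8 of 9 cases, and C4b and C3 did so only through A-iSCs. All 8 lay past the threshold used for other genes, an adjusted p under 0.05, which 25.2% of genes passed with a higher level in A-iSCs and 29.6% with a lower level. The genes were chosen on this contrast, and nothing is read from that count. In bulk RNA, more cells of a type cannot be told apart from more RNA per cell.

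Both NPC groups were compared with the same AST libraries, so these comparisons share their reference. In P56-NPCs minus ASTs, C4b differed by 3.56 ± 0.07, C1qb by 1.43 ± 0.10, C1qa by 1.29 ± 0.13, C1qc by 1.28 ± 0.12 and C3 by 1.01 ± 0.12, while C3ar1 was at -1.04 ± 0.07 and C5ar1 at -1.45 ± 0.13. Serping1 was at -0.44 ± 0.15 with overlapping libraries, and it passed the threshold in only 7 of 15 settings, failing among others without AST replicate 1 (-0.42), AST replicate 2 (-0.37), P56-NPC replicate 1 or P56-NPC replicate 2 (-0.36 each). Of 8 fitted members 5 were higher and 3 lower past the threshold, beside 39.1% higher and 39.8% lower over all genes. C4b and C3 entered this fit only through P56-NPCs and C5ar1 only through ASTs. In P0-NPCs minus ASTs, Serping1 was at 1.61 ± 0.11, C1qb at -0.53 ± 0.13, C1qc at -0.57 ± 0.14, C1qa at -1.04 ± 0.12, C5ar1 at -2.05 ± 0.14 and C3ar1 at -2.11 ± 0.08. C4b and C3 were below the filter in this pair. Of the 6 fitted members 1 was higher and 5 were lower, beside 38.1% higher and 40.9% lower over all genes, and C3ar1 and C5ar1 entered only through ASTs. C1qb and C1qc no longer passed under library-size or upper-quartile scaling, which gave -0.24 and -0.11 for C1qb and -0.29 and -0.16 for C1qc.

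A-iSCs were then compared with the brain suspensions, which the study used as positive controls for progenitors. Against P56-NPCs the 8 fitted members were higher in A-iSCs by 1.53 ± 0.16 for C4b up to 4.16 ± 0.14 for C3ar1, with C5ar1 at 3.28 ± 0.12 and C1qa at 2.25 ± 0.16, and their median was 2.38. All 8 passed the threshold, beside 30.1% of genes higher and 30.9% lower, and C5ar1 entered this fit only through A-iSCs. Against P0-NPCs the differences ran from 0.35 ± 0.14 for Serping1, which did not pass, to 5.22 ± 0.14 for C3ar1, with C4b at 4.75 ± 0.19 and C1qa at 4.58 ± 0.16. The other 7 passed, beside 31.5% of genes higher and 33.6% lower, but C4b, C3, C3ar1 and C5ar1 entered this fit only through A-iSCs. Serping1 passed in this pair only when A-iSC replicate 1 was left out. Between the suspensions, P56-NPC minus P0-NPC, C4b was at 3.22 ± 0.13, C1qa at 2.33 ± 0.07, C1qb at 1.96 ± 0.11, C1qc at 1.85 ± 0.10, C3 at 1.47 ± 0.12 and C3ar1 at 1.07 ± 0.09, whereas Serping1 was at -2.05 ± 0.14 and C5ar1 was below the filter. Past the threshold were 6 higher and 1 lower of 7 fitted members, beside 39.7% higher and 39.0% lower over all genes, and C4b, C3 and C3ar1 entered only through P56-NPCs. As in the first comparison, nothing is read from these counts.

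**Figure D2:**
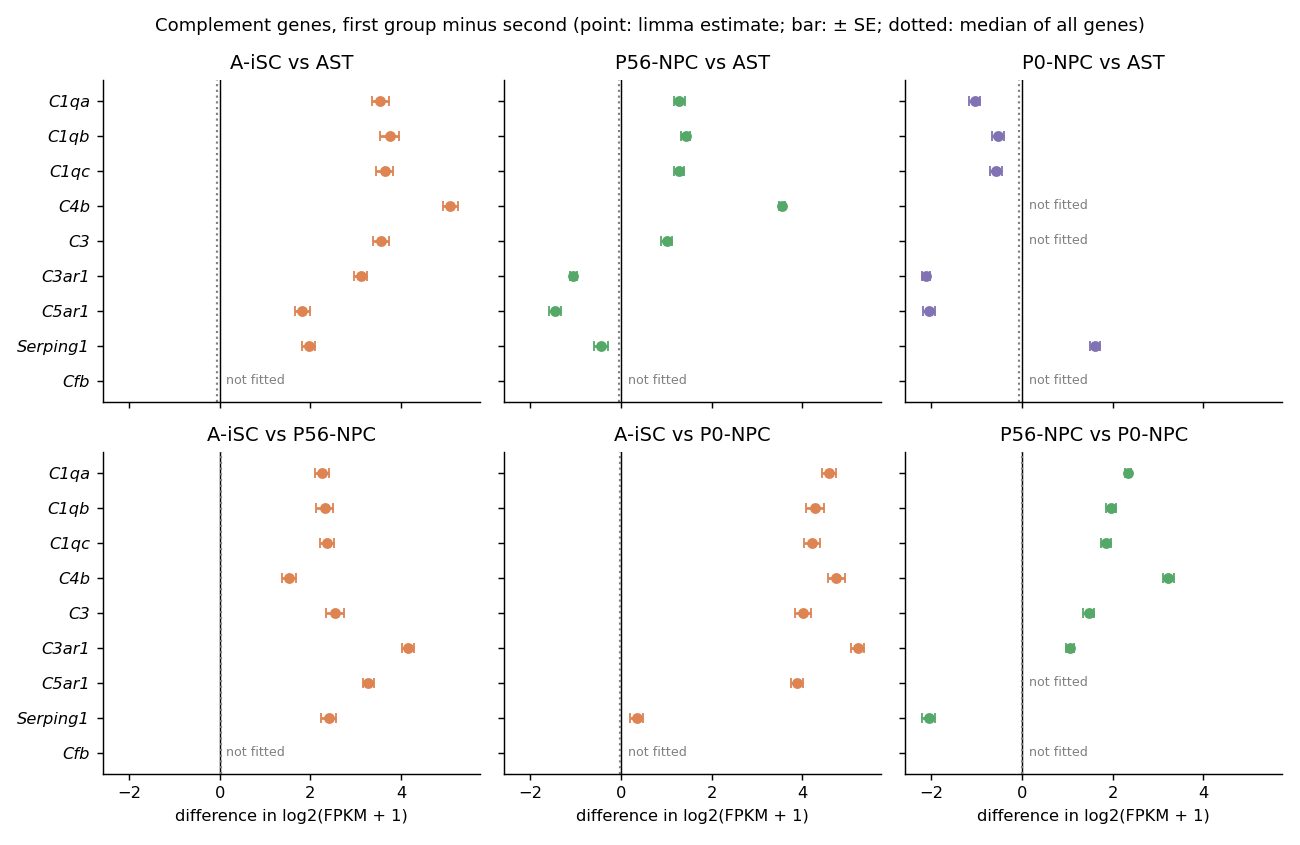
Difference in log2(FPKM + 1) between the groups named above each panel, first minus second, for each complement gene. Points are limma estimates, bars are ± SE, the dotted line is the median of all genes tested, and genes under the filter on low values are marked as not fitted. All 8 points lie right of 0 against ASTs, P56-NPCs and P0-NPCs in the A-iSC panels, while C3ar1 and C5ar1 lie left of 0 in the NPC panels against ASTs.

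Myeloid markers also differed between these groups. In A-iSCs against ASTs, 14 of 14 tested microglial markers were called higher, beside 25.2% of all genes, with a median difference of 2.88. P2ry12, Ptprc and Trem2 entered this fit only through A-iSCs, and Trem2 passed in 9 of 15 settings, and not without A-iSC replicate 1, A-iSC replicate 2, AST replicate 1 or AST replicate 3. In A-iSCs against P56-NPCs 9 of 15 were higher and 4 lower, beside 30.1% and 30.9% of all genes, with a median difference of 1.13. Csf1r, the receptor on which microglia depend, was at 7.15 to 8.47 FPKM in ASTs, 74.3 to 104 in A-iSCs, 74.2 to 77.3 in P56-NPCs and 10.5 to 14.1 in P0-NPCs. Siglech, another microglial marker, was at 0 to 0.0733 FPKM in ASTs and A-iSCs and at 17.6 to 19.2 in P56-NPCs. The 5 macrophage markers summed to 4.94 to 8.22 FPKM in ASTs and 49.6 to 70.2 FPKM in A-iSCs, and both that could be tested were called higher, beside 25.2% of all genes, with a median difference of 2.86. Of the 4 neutrophil markers, S100a9 and Ly6g were at 0 fragments in all AST and A-iSC libraries and S100a8 was at 0.275 and 0.282 FPKM on average, whereas Csf3r rose from 0.544 to 12.9 FPKM. Relative to Csf1r, C1qa was at 11.5 ± 2.44 in ASTs and 11.8 ± 0.391 in A-iSCs (SD, n = 3), and these libraries overlapped. It was at 2.80 ± 0.253 in P56-NPCs and 3.36 ± 0.443 in P0-NPCs. Both suspensions thus lay below the culture groups, although C1qa itself was higher in P56-NPCs than in ASTs. This depended in part on the marker. Relative to Cx3cr1, the fractalkine receptor of microglia, C1qa was at 11.5 to 13.1 in ASTs and 15.6 to 18.1 in A-iSCs, without overlap, at 4.44 to 6.11 in P56-NPCs and at 7.46 to 11.4 in P0-NPCs.

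For the receptors the gap between culture groups and suspensions was wider. C3ar1 per Csf1r was 0.762 ± 0.0419 in ASTs and 0.665 ± 0.0195 in A-iSCs, against 0.0301 ± 0.00286 in P56-NPCs and 0.0457 ± 0.00181 in P0-NPCs. Per Cx3cr1, C3ar1 was at 0.810 ± 0.0728, 0.949 ± 0.0844, 0.0568 ± 0.00923 and 0.135 ± 0.0246 in the same order. C5ar1 per Csf1r was 0.582 ± 0.105 in ASTs, 0.208 ± 0.00790 in A-iSCs, 0.0127 ± 0.000661 in P56-NPCs and 0.0244 ± 0.00854 in P0-NPCs. This gap was not particular to the complement genes. Ctss per Csf1r was 9.92 ± 1.03 in ASTs, 11.3 ± 1.67 in A-iSCs, 3.07 ± 0.283 in P56-NPCs and 2.22 ± 0.0971 in P0-NPCs, and Tyrobp, a signalling adaptor of myeloid cells, was at 6.42 ± 1.92, 5.47 ± 0.247, 0.668 ± 0.0121 and 1.94 ± 0.133 in the same order. P2ry12, a receptor of resting microglia, had the opposite pattern, with 0.0880 ± 0.0146 per Csf1r in ASTs, 0.0862 ± 0.0330 in A-iSCs, 0.790 ± 0.0193 in P56-NPCs and 0.350 ± 0.0354 in P0-NPCs. Between the culture groups the ratio to Csf1r was not constant for the receptors, C3 or C4b. C3ar1 and C5ar1 per Csf1r were lower in A-iSCs than in ASTs, without overlap, whereas C3 and C4b were higher. C3 per Csf1r was 0.0767 ± 0.00967 in ASTs and 0.215 ± 0.0895 in A-iSCs, and C4b per Csf1r was 0.0452 ± 0.00927 in ASTs and 0.530 ± 0.155 in A-iSCs, without overlap in either case. C4b per Gfap, an intermediate filament gene of reactive astrocytes, was 0.0114 ± 0.00129 in ASTs, 0.0532 ± 0.0238 in A-iSCs, 0.0701 ± 0.00416 in P56-NPCs and 0.0114 ± 0.00251 in P0-NPCs. The part of the share of microglia or of astrocytes in the levels of these genes was not tested.

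**Figure D3:**
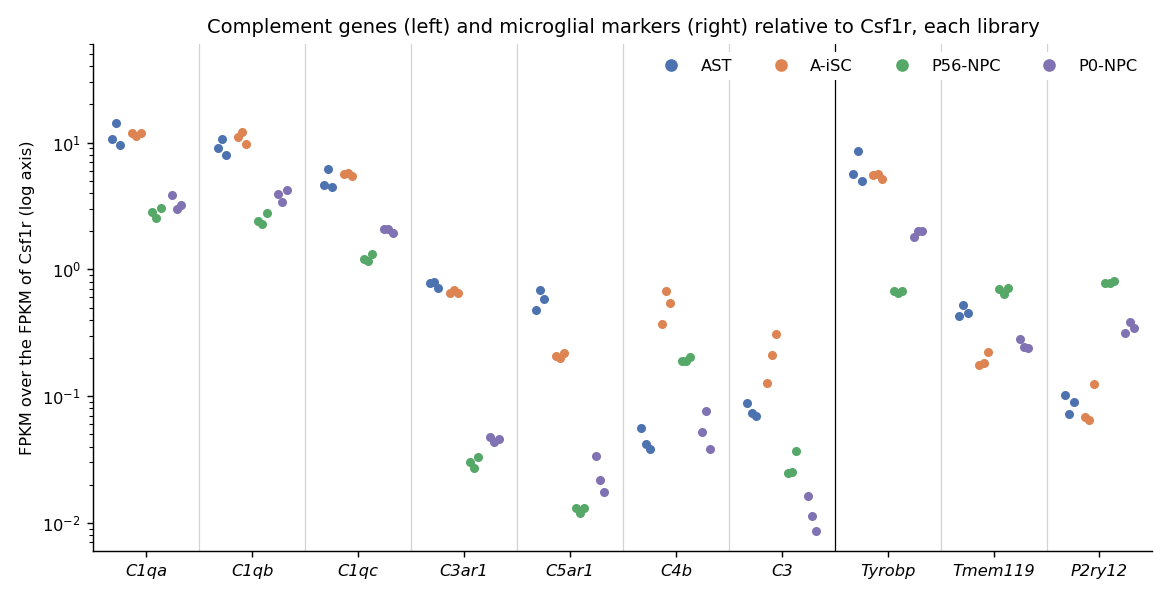
FPKM of 7 complement genes and, right of the black line, of 3 microglial markers, each divided by the FPKM of Csf1r in the same library, on a log axis. Points are the 12 libraries, coloured by group. C1qa, C1qb and C1qc lie together in ASTs and A-iSCs, C3ar1 and C5ar1 lie far lower in both NPC groups, and P2ry12 lies highest in P56-NPCs.

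The A-iSC libraries differed among themselves in a way that split the 9 genes. A-iSC replicate 1 had the highest level of C1qa, C1qb, C1qc, C3ar1 and C5ar1 of the 3, as of Csf1r with 104 FPKM. The same library had the lowest level of C4b, C3 and Serping1, as of Gfap, which was at 658, 769 and 1483 FPKM in A-iSC replicates 1, 2 and 3. C3 was highest in replicate 3 and C4b and Serping1 in replicate 2. With 3 libraries, this order is a description and was not tested.

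Across the 12 libraries, the genes whose log2(FPKM + 1) followed each of 5 members most closely were named by Pearson's r among 13652 protein-coding genes. The libraries form 4 groups, so r mainly reflects the group means, and it is given as a description. C1qa was followed by Lgmn (r = 0.996), Irf5, Cd53, Ctss and Cysltr1, of which Ctss, a lysosomal protease, rose from 75.2 FPKM in ASTs to 978 in A-iSCs in the means. C3 was followed by Ptprc (0.993), the leukocyte antigen CD45, and by Dock2, Fcrls, Abcc3 and Neurl3. C4b was followed by Inpp5d (0.994), Tbc1d22a, Cerk and Csf3r, which were higher in A-iSCs and P56-NPCs than in ASTs and P0-NPCs. Serping1 was followed by Ap1s2 (0.975), Pf4, Rbm6, Pdzrn3 and Cpxm1. Pf4, a chemokine gene of border macrophages in the brain, was at 3.89 FPKM in ASTs, 28.4 in A-iSCs, 1.13 in P56-NPCs and 22.0 in P0-NPCs on average. The 5 genes closest to Cfb, Stk32c (0.904), Grin3a, Pi4ka, Zfp853 and Tcp11l1, rest on its few fragments and are not read further.

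The rest of the complement system was taken as a list of 47 other genes, of which 22 reached a mean of 1 FPKM in any group and 10 a mean of 5 FPKM. These genes were tested with limma, with Benjamini-Hochberg adjustment over all genes. In A-iSCs against ASTs 15 could be tested, and 8 were higher and 4 lower, beside 25.2% and 29.6% of all genes, with a median difference of 0.95 beside -0.06 over all genes. Fcna, C5ar2 and Susd4 passed the filter only through A-iSCs and Cd55 only through ASTs, so that a difference was built into their selection. The 7 receptors of the list had 3 tested members, which all rose. Itgb2 and Itgam, the subunits of complement receptor 3 that binds C3 fragments, went from 4.43 ± 0.339 to 36.3 ± 4.86 FPKM (SD, n = 3; difference 2.77 ± 0.13, adjusted p = 6.92e-06) and from 1.91 ± 0.795 to 14.6 ± 5.12 FPKM (2.40 ± 0.31, adjusted p = 0.000537). C5ar2, the second receptor of C5a, rose by 0.96 ± 0.12 from 0.0835 to 1.11 FPKM (adjusted p = 0.000547). Most exonic bases of Itgam lie also in Gm49368, a gene on the same strand that was listed at 0 in all libraries but 1.

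Properdin (Cfp), which stabilizes the convertase of the alternative pathway, rose from 4.30 ± 1.06 to 34.1 ± 11.9 FPKM (2.68 ± 0.28, adjusted p = 0.000196), and ficolin A (Fcna), a recognition molecule of the lectin pathway, from 0.0924 to 1.30 FPKM (1.07 ± 0.12, adjusted p = 0.000339). Clusterin (Clu), a regulator in fluid phase, rose from 135 ± 5.72 to 494 ± 58.9 FPKM (1.85 ± 0.15, adjusted p = 5.94e-05). The membrane regulators did not move together. Susd4 rose by 0.95 ± 0.11 (adjusted p = 0.000293), whereas Cd55, decay-accelerating factor, fell from 1.71 to 0.362 FPKM (-0.99 ± 0.11, adjusted p = 0.000287) and Cd59a, which blocks the membrane attack complex, fell from 10.6 ± 1.48 to 5.32 ± 0.980 FPKM (-0.88 ± 0.15, adjusted p = 0.00249). Masp1, a protease of the lectin pathway, fell from 7.54 ± 1.74 to 1.29 ± 0.00800 FPKM (-1.87 ± 0.17, adjusted p = 8.85e-05), and C1ra, a protease of the C1 complex, fell from 3.85 to 2.15 FPKM (-0.62 ± 0.17, adjusted p = 0.0168), though not under upper-quartile scaling (adjusted p = 0.0623). C1s1, the other C1 protease, had means of 1.22 FPKM before and 1.21 FPKM after sphere culture (adjusted p = 0.888), and Csmd2 and Cr1l did not pass either (adjusted p = 0.164 and 0.0710). Cr1l passed without A-iSC replicate 3 (adjusted p = 0.0411) and with all 4 groups in the model (adjusted p = 0.0197). An antisense gene covers 18.4% of the exonic bases of C1s1 and 6.55% of those of Fcna, and reads of the pair cannot be told apart without strand. None of the 7 genes of the terminal pathway reached the filter in this pair.

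**Figure D4:**
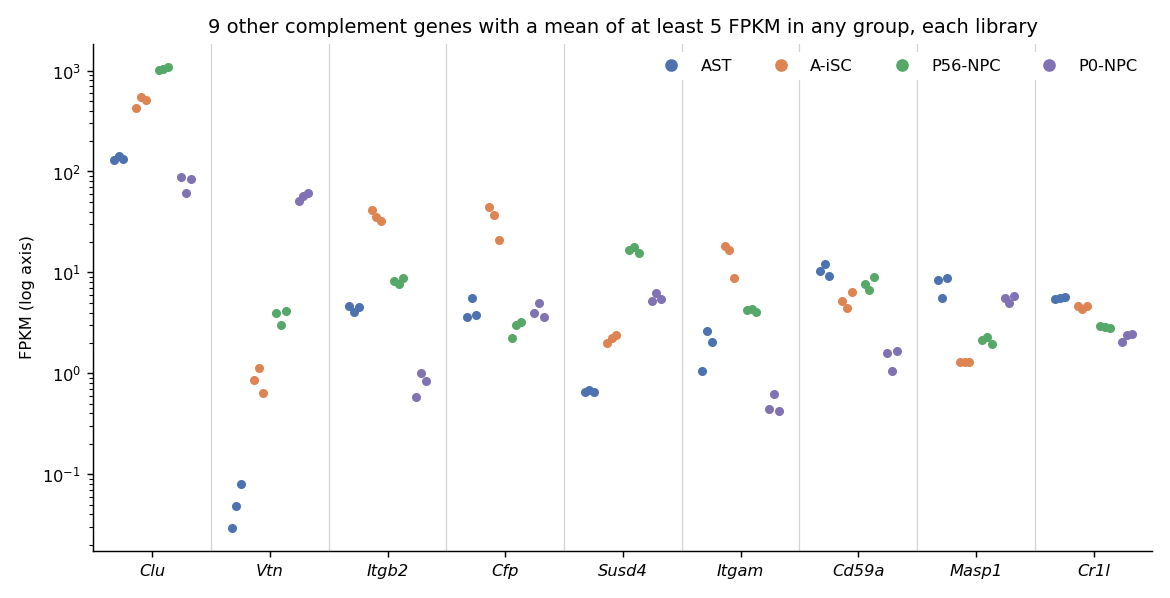
FPKM on a log axis of 9 of the other complement genes that reached a mean of 5 FPKM in any group, ordered by their highest group mean. Points are the 12 libraries, coloured by group. Itgb2, Cfp and Itgam are highest in A-iSCs, Clu and Susd4 in P56-NPCs, Vtn in P0-NPCs, and Cd59a, Masp1 and Cr1l in ASTs, by group mean.

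Other members of the system were highest outside A-iSCs. Clu reached 1048 ± 35.0 FPKM in P56-NPCs and stood at 77.8 ± 14.7 in P0-NPCs, a difference of 3.75 ± 0.14 (adjusted p = 3.18e-07). Vtn, encoding vitronectin, was at 56.7 ± 5.19 FPKM in P0-NPCs, 3.69 ± 0.624 in P56-NPCs, 0.872 in A-iSCs and 0.0525 in ASTs, with a difference of -3.63 ± 0.11 for P56-NPCs minus P0-NPCs (adjusted p = 1.62e-07). Susd4 was at 16.6 ± 1.15 FPKM in P56-NPCs and 5.67 ± 0.561 in P0-NPCs. In P0-NPCs, endothelial markers summed to 66.8 to 67.4 FPKM, against 1.13 to 3.59 in the other groups. Fibroblast and mural markers summed to 102 to 106 FPKM, against 141 to 191 in ASTs, 6.23 to 7.73 in A-iSCs and 9.32 to 12.9 in P56-NPCs. Most of the AST sum was Col1a1, at 131 to 178 FPKM. Of these 5 markers, 3 were called higher and 1 lower in P0-NPCs than in ASTs, beside 38.1% and 40.9% of all genes. The 3 passed the filter only through P0-NPCs. The part of endothelial, fibroblast and mural cells in the level of Vtn was not tested.

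Over the whole list, P56-NPCs against ASTs gave 9 higher and 7 lower genes of 18 tested, beside 39.1% and 39.8% of all genes, and P0-NPCs against ASTs 8 higher and 7 lower of 18, beside 38.1% and 40.9%. These shares were near those over all genes. A-iSCs against P56-NPCs, with 30.1% and 30.9% of all genes, gave 7 higher and 10 lower of 20, but 10 higher and 5 lower of 19 under library-size scaling. A-iSCs against P0-NPCs gave 9 higher and 10 lower of 19, beside 31.5% and 33.6%. In this pair Itgb2, Itgam, C1ra, C1s1 and C5ar2 passed the filter only through A-iSCs, and Vtn, Cd55 and others only through P0-NPCs. A difference was thus built into their selection, and the other pairs held such genes too. P56-NPCs against P0-NPCs, with 39.7% and 39.0% of all genes, gave 10 higher and 7 lower of 19, but 6 higher and 10 lower under library-size scaling and 8 of each under upper-quartile scaling. For P56-NPCs against ASTs, upper-quartile scaling gave 10 higher and 4 lower. C1ra was higher in A-iSCs than in both suspensions, by 1.31 ± 0.12 against P56-NPCs (adjusted p = 0.000103) and by 1.35 ± 0.13 against P0-NPCs (adjusted p = 6.24e-05), but it passed the filter in these pairs only through A-iSCs.

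Genes that are known to induce complement components, namely cytokines, their receptors and transcription factors, were counted as a list of 20. In A-iSCs against ASTs, 12 of 19 tested were higher and 1 was lower, beside 25.2% and 29.6% of all genes, with a median difference of 0.79. On log2(FPKM + 1), a scale that understates changes from low values, Irf8 and Spi1, transcription factors of the myeloid lineage, differed the most. They went from 1.29 ± 0.0362 to 17.9 ± 1.41 FPKM (3.04 ± 0.10, adjusted p = 3.54e-06) and from 4.30 ± 0.956 to 40.3 ± 15.9 FPKM (2.90 ± 0.30, adjusted p = 0.000195). Il1b rose from 0.412 to 3.67 FPKM (1.72 ± 0.17, adjusted p = 0.00015) and Il1a from 0.106 to 2.06 FPKM (1.45 ± 0.17, adjusted p = 0.000341), both of which encode forms of interleukin-1. Osmr, the receptor of oncostatin M, rose from 1.67 to 7.09 FPKM (1.59 ± 0.14, adjusted p = 0.000104). Cebpb rose by 1.06 ± 0.29 (adjusted p = 0.0177) and Il6st, the shared receptor chain of the interleukin-6 family, by 1.04 ± 0.30 (adjusted p = 0.0213). These last calls were not firm, since Cebpb was lost without A-iSC replicate 1, A-iSC replicate 2, AST replicate 1 or AST replicate 3 (adjusted p = 0.0572, 0.0652, 0.0606 and 0.0569) and Il6st without AST replicate 2 (adjusted p = 0.0741). Of the others called higher, Ifngr1 was lost without AST replicate 1, AST replicate 3, A-iSC replicate 1 or A-iSC replicate 2, and Stat3 without AST replicate 2. Il1a and Il1b passed the filter only through A-iSCs and Il6 only through ASTs, so that a difference was built into their selection too. Il6 fell from 1.09 to 0.347 FPKM (-0.63 ± 0.12, adjusted p = 0.00321), Tnf had means of 2.50 FPKM in ASTs and 3.06 FPKM after sphere culture (adjusted p = 0.487), and Ifng, encoding interferon gamma, was at 0 in all AST and A-iSC libraries. In the other comparisons the list gave 17 higher of 18 in A-iSCs against P56-NPCs (30.1% of all genes), 18 higher of 18 against P0-NPCs (31.5%), 3 higher and 12 lower of 17 in P56-NPCs against ASTs (39.1% and 39.8%), and 15 lower of 17 in P0-NPCs against ASTs (40.9%).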

How the data were processed

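The table covers 12 libraries, 3 for each of the 4 groups that the labels name. They were prepared by the authors with the NEBNext Ultra RNA kit, for which no strand setting is stated, and sequenced as paired-end reads, and low-quality reads were removed before analysis. The authors deposited one table of FPKM per gene and sample with gene lengths. The submitters' notes name Bowtie 0.12.2 and mm8, whereas 54899 of 55154 identifiers shared with GENCODE M21 have its GRCm38 positions. The role of Bowtie and the counting tool are not given in the sources used here. In each column, FPKM multiplied by length came out as whole fragments within 0.01, which gave the fragments and showed that library sizes had been rescaled by 0.744 to 1.22.

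The log2 values were computed here from the deposited FPKM with a pseudocount of 1. Groups were compared pairwise in 6 comparisons with limma 3.58.1 (lmFit, eBayes with trend) in R 4.3.3 over genes with a mean of at least 1 FPKM in either group, and a gene was called where its Benjamini-Hochberg adjusted p was under 0.05. DESeq2, which the study used, was not run. The code was tested on simulated data. Python 3.11.15 with pandas 2.3.3 and matplotlib 3.10.9 was used for the rest.

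The 9 genes, the lists and the alternatives were chosen with earlier results of these data known. Named were the 9 genes, those of 47 other complement genes with a mean of 5 FPKM in any group or called between A-iSCs and ASTs, inducers that differed there by at least 1, and the 5 genes most correlated with each of 5 members, and copies of a member such as C4a. Genes named beyond this (C1s1, Csmd2, Ifng, Ifngr1, Stat3, Tnf, Il6) were picked after their values were seen, as were the marker genes compared with Csf1r or Cx3cr1. A few named genes and patterns are not reported here, though the counts include them. Alternatives were a pseudocount of 0.1, no filter, a mean of 5 FPKM, library-size and upper-quartile scaling, a model over all 4 groups, a replicate block, limma-voom on the recovered fragments, a log2 fold change beyond 1, and leaving out each sample. The floor of 3 fragments covers counting error only.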

Additional observations from a re-analysis of the deposited data

How the results depend on the processing

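None of the 624 alternative values of single members changed sign, and 81 moved by more than the spread between replicates. The medians of the members moved under a pseudocount of 0.1 to 1.30 (P56-NPC vs AST), 2.61 (A-iSC vs P56-NPC) and 5.07 (A-iSC vs P0-NPC); under library-size scaling to 3.75 (A-iSC vs AST), 0.86 (P56-NPC vs AST), -0.52 (P0-NPC vs AST), 2.89 (A-iSC vs P56-NPC) and 1.23 (P56-NPC vs P0-NPC). Upper-quartile scaling gave -0.39 (P0-NPC vs AST), 4.02 (A-iSC vs P0-NPC) and 1.60 (P56-NPC vs P0-NPC), limma-voom 2.67 (A-iSC vs P56-NPC) and 5.33 (A-iSC vs P0-NPC), and a mean of 5 FPKM -0.57 (P0-NPC vs AST). These scalings moved the median of all genes as well, with library-size scaling to 0.13 (A-iSC vs AST), -0.34 (P56-NPC vs AST), 0.21 (P0-NPC vs AST), 0.49 (A-iSC vs P56-NPC) and -0.53 (P56-NPC vs P0-NPC), and with upper-quartile scaling to 0.12 (A-iSC and P56-NPC vs AST), 0.33 (P0-NPC vs AST) and -0.22 (both comparisons with P0-NPC). Leaving out each sample gave medians of 3.45 to 3.60, 1.07 to 1.18, -0.90 to -0.69, 2.33 to 2.48, 4.15 to 4.41 and 1.76 to 1.96, in the order A-iSC vs AST, P56-NPC vs AST, P0-NPC vs AST, A-iSC vs P56-NPC, A-iSC vs P0-NPC and P56-NPC vs P0-NPC. In the same order, the other complement genes called, 12, 16, 15, 17, 19 and 17, became 6, 7, 7, 6, 9 and 6 with a mean of 5 FPKM, where fewer genes are tested. With a log2 fold change beyond 1 they became 7 (A-iSC vs AST), 7 (P56-NPC vs AST), 9 (A-iSC vs P56-NPC), 11 (A-iSC vs P0-NPC) and 10 (P56-NPC vs P0-NPC). With limma-voom, which tests more low genes, they became 23, 27 and 30 against ASTs for A-iSC, P56-NPC and P0-NPC, and with no filter 28 for P0-NPC vs AST. Leaving out each sample gave 12 to 13, 12 to 16, 15 to 16, 15 to 17, 17 to 19 and 15 to 17.

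In none of the 6 pairs of groups did all same-numbered libraries deviate together (residual correlations of -0.378, 0.335 and 0.427 for ASTs and A-iSCs), so the replicate numbers are taken as names. With the replicate block 12, 13, 16, 16, 19 and 17 other complement genes were called. Depth limits Cfb, and to a lesser degree C3 and C5ar1 in P0-NPCs.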
